A study of Homo sapiens with 55 samples.

Results

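The solute carrier (SLC) genes were followed over 55 expression arrays of SCL60 and HEK293 cells treated with triptorelin or vehicle. HEK293 is a human embryonic kidney cell line, and SCL60 is a derivative that was stably transfected with the rat gonadotropin-releasing hormone (GnRH) receptor at a high level and kept in medium with the selection antibiotic G418. The labels describe the parental HEK293 cells as unresponsive, with no detectable GnRH receptor. Triptorelin, a peptide agonist of that receptor, was given at 100 nM, and controls received propylene glycol solution. SCL60 cells had vehicle for 0, 1, 8 or 24 h or triptorelin for 0.5, 1, 2, 8 or 24 h, and HEK293 cells had vehicle for 0, 1 or 24 h or triptorelin for 1 or 24 h. Each of these 14 groups had 4 arrays, apart from the SCL60 controls at 1 h, which had 3. SCL60 is a transfected line compared with its parent, so the receptor, the selection drug and the history of the line cannot be told apart in a comparison of the lines, and the rat transgene was not measured here.

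A gene was counted as a member when its symbol in the platform annotation began with SLC and a digit and 1 of its probes had a detection p-value under 0.01 on at least 3 arrays. This held for 200 of the 377 SLC symbols annotated on the array. At the edge of the rule, SLC1A1, SLC35E4 and SLC5A3 were detected on exactly 3 arrays, 6 symbols on 2 arrays, 2 symbols on 1 array and 169 on none. Of the 200 members, 129 were detected on all 55 arrays, and they came from 50 family numbers, led by the 33 mitochondrial carriers of family 25 and the 22 genes of family 35. By biotype 197 were protein coding, 2 were transcribed pseudogenes (SLC6A10P and SLC7A5P2) and 1, SLC9A3-OT1, was a long non-coding RNA. SLC2A4RG and SLC7A6OS carry an SLC symbol because of a neighbouring or regulated transporter and are not transporters themselves.

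Solute carriers are membrane proteins that move small molecules and ions across the plasma membrane or into organelles, by facilitated diffusion, exchange or coupling to an ion gradient. Families are numbered by sequence, so most members of a number handle related substrates: glucose for SLC2, amino acids for SLC1, SLC7 and SLC38, zinc out of the cytosol for SLC30 and into it for SLC39, and metabolites of the mitochondrial matrix for SLC25. Several amino acid carriers are classical targets of ATF4, the transcription factor that is translated when amino acids run short or the endoplasmic reticulum is under stress. Glucose carriers of the plasma membrane are known to rise after growth factor signalling.

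Intensities are given as log2 of the background-corrected, quantile-normalized signal, 1 value per array, and a difference is the mean of the treated group minus that of its controls with its standard error. A gene was called when limma's moderated test gave an adjusted p under 0.05 over all 12793 genes and unnamed probes. The fit did not pair replicates, except where the replicate number is named as a block. Signals of different probes are not comparable as levels. In bulk RNA, fewer cells and less RNA per cell cannot be told apart. The labels do not say that replicates came from separate cultures, so p-values measure the spread between these samples, which may be technical. The arrays had between 11766 and 14763 probes detected, and log2 values of replicates correlated at 0.95 to 0.993. HEK293 lineage genes (NEFL, NEFM, INA, KRT8, KRT18, VIM and SOX2) were detected on 55 of 55 arrays, with PAX2 on 0, while the proximal tubule transporters SLC34A1, SLC22A6 and SLC5A2 were detected on 0. Of the lists for other cells, the tubule genes CUBN and AQP1 were detected on 0 arrays and LRP2 on 15, the fibroblast genes DCN, LUM, COL3A1 and THY1 on 0 and PDGFRA on 30, and the blood genes PTPRC, CD3E and HBB on 0 and CD14 on 39.

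Promoter windows of 300 bases, from 250 before to 50 after each annotated start, were available for 172 members (253 windows, RefSeq sequences on GRCh38.p14). They were searched on both strands for TGATGNAA, the core of the amino acid response element that ATF4 and C/EBP proteins bind, for the cyclic AMP element TGACGTCA, for the AP-1 element TGANTCA and for the hypoxia element core GCGTG. No motif of this set is contained in another. TGATGNAA lay in 3 of the 39 windows (7.69%) of members that rose at 8 h. It lay in 2 of the 18 windows (11.1%) of members that rose at 24 h and in 3.62% of all 35116 windows. Among members that fell it lay in 1 of 34 windows (2.94%) at 8 h and in 1 of 17 (5.88%) at 24 h. TGACGTCA lay in 2.56% of the windows of 8 h risers and in 1.85% of all, TGANTCA in 7.69% and 7.71%, and GCGTG in 61.5% and 36.5%. GCGTG was as frequent among the windows of members that fell at 8 h (58.8%) and among all SLC windows (57.3%). Among the 18 windows of 24 h risers TGACGTCA also lay in 2 (11.1%), TGANTCA in 1 (5.56%) and GCGTG in 13 (72.2%). Among the 17 windows of 24 h fallers the shares were 0%, 0% and 47.1%. TGATGNAA was present near a start of 10 members. Of these SLC3A2, SLC7A1, SLC1A5 and SLC1A4, all amino acid transporters, were called higher at 8 h or 24 h. The calls of SLC1A5 and SLC1A4 did not hold when some single arrays were left out. SLC11A2 was called lower at 8 h and SLC39A11 at 24 h, and SLC1A3, SLC38A1, SLC25A11 and SLC27A5 were called at neither time. Over all 200 members 14.5% were called higher at 8 h and 8% at 24 h, beside 11.1% and 4.75% of everything tested. The windows of the genes called higher are shown because these genes carry both the motif and a rise. Capitals mark the match to TGATGNAA or its reverse complement, and the letters alone are a description, not evidence of a binding site.
SLC1A4, chr2:64989149-64989448, plus strand: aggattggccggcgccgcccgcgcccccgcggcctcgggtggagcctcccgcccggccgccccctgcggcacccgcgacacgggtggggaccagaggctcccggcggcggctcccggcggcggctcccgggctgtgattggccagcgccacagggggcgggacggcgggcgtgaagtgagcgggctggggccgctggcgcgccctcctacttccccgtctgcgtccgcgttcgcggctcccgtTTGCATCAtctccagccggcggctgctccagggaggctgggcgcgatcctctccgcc
SLC1A5, chr19:46784765-46785064, minus strand: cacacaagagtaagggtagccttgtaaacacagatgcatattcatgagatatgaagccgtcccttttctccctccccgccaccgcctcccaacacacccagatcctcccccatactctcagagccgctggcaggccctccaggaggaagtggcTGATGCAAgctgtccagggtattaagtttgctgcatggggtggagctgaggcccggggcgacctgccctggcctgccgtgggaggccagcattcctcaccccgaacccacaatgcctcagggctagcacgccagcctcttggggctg
SLC3A2, chr11:62881449-62881748, plus strand: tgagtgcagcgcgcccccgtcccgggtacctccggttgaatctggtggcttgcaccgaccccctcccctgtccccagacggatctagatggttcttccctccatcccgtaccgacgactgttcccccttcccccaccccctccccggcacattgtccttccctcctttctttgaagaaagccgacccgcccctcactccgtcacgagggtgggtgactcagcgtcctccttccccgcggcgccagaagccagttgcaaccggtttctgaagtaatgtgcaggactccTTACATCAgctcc
SLC7A1, chr13:29595639-29595938, minus strand: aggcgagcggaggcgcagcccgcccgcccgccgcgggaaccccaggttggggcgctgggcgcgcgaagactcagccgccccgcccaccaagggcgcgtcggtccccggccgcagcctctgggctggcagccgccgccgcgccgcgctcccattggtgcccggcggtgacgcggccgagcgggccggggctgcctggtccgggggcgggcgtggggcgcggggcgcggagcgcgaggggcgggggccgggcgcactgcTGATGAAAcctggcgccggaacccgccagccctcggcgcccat

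In SCL60 cells treated for 8 h, 57 of the 200 members (28.5%) were called, against 24.6% of everything tested. Of these, 29 (14.5%) rose and 28 (14%) fell, beside backgrounds of 11.1% higher and 13.5% lower. The median difference over the members was -0.04 and that over everything tested was -0.03. The size of the changes was modest, with 7 rises and 2 falls of at least 2-fold. Among the amino acid transporters, 8 of 32 measured rose and 0 fell, with a median difference of 0.16. Zinc carriers (3 of 17 higher, 1 lower) and phosphate, sulfate and vesicular carriers (3 of 7 higher, 1 lower) also had more rises than falls. The glucose and other sugar group was split (3 higher and 3 lower of 13), with the non-carrier SLC2A4RG among the lower. Mitochondrial carriers (3 higher and 6 lower of 33) and carriers of fatty acids, choline, bile acids and peptides (0 higher and 3 lower of 14) had more falls.

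At 24 h, 30 members (15%) were called against 10.5% of everything tested, with 16 higher (8%, background 4.75%) and 14 lower (7%, background 5.71%). Of the calls at the 2 times, 19 genes were shared, which is 33.3% of the 8 h calls and 63.3% of the 24 h calls, and each had the same direction at both times (12 higher and 7 lower). Amino acid carriers again had rises and no falls (4 and 0 of 32). The sugar group had 3 rises and 1 fall, and the fall was SLC2A4RG, which is not a carrier. The fatty acid and choline group had 0 rises and 4 falls. All 57 calls at 8 h and all 30 at 24 h kept their sign in both hybridisation batches that the labels name, although batch 2 held only 1 treated array at 8 h and 1 treated and 1 control array at 24 h. The batches are parts of the same arrays that gave the calls, so this is a description and not an independent test. The median rise at 8 h was 0.60 in batch 1 and 0.71 in batch 2, and the median fall was -0.64 and -0.73. At 24 h the median rise was 0.76 and 0.70 and the median fall -0.69 and -0.68.

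**Figure D1:**
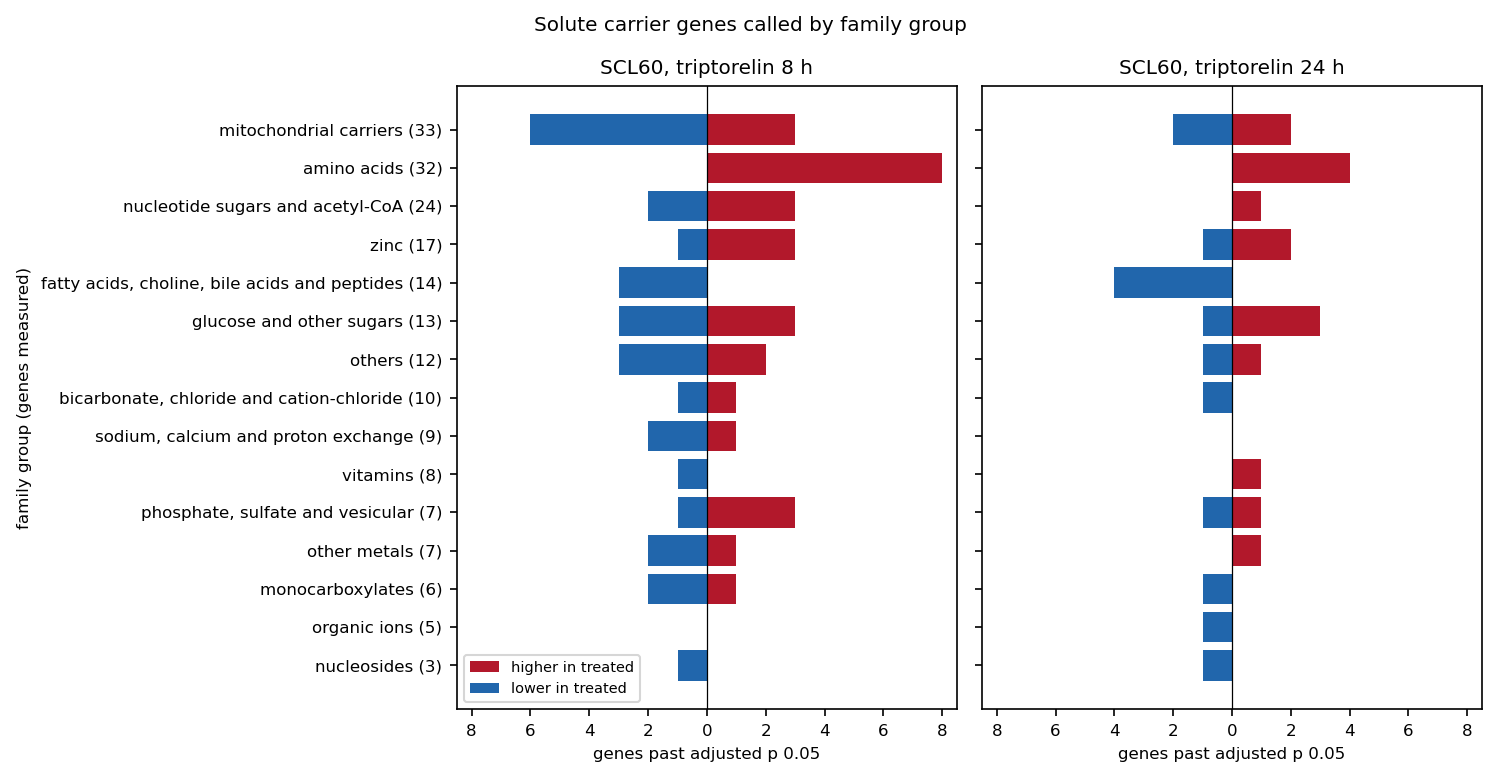
Number of SLC genes past adjusted p 0.05 in SCL60 cells after 8 h (left) and 24 h (right) of triptorelin, with bars to the right for genes higher and to the left for genes lower than vehicle, by family group with the number measured in brackets. Amino acid carriers had 8 rises and 0 falls at 8 h and 4 and 0 at 24 h, while the mitochondrial carriers moved both ways.

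**Figure D2:**
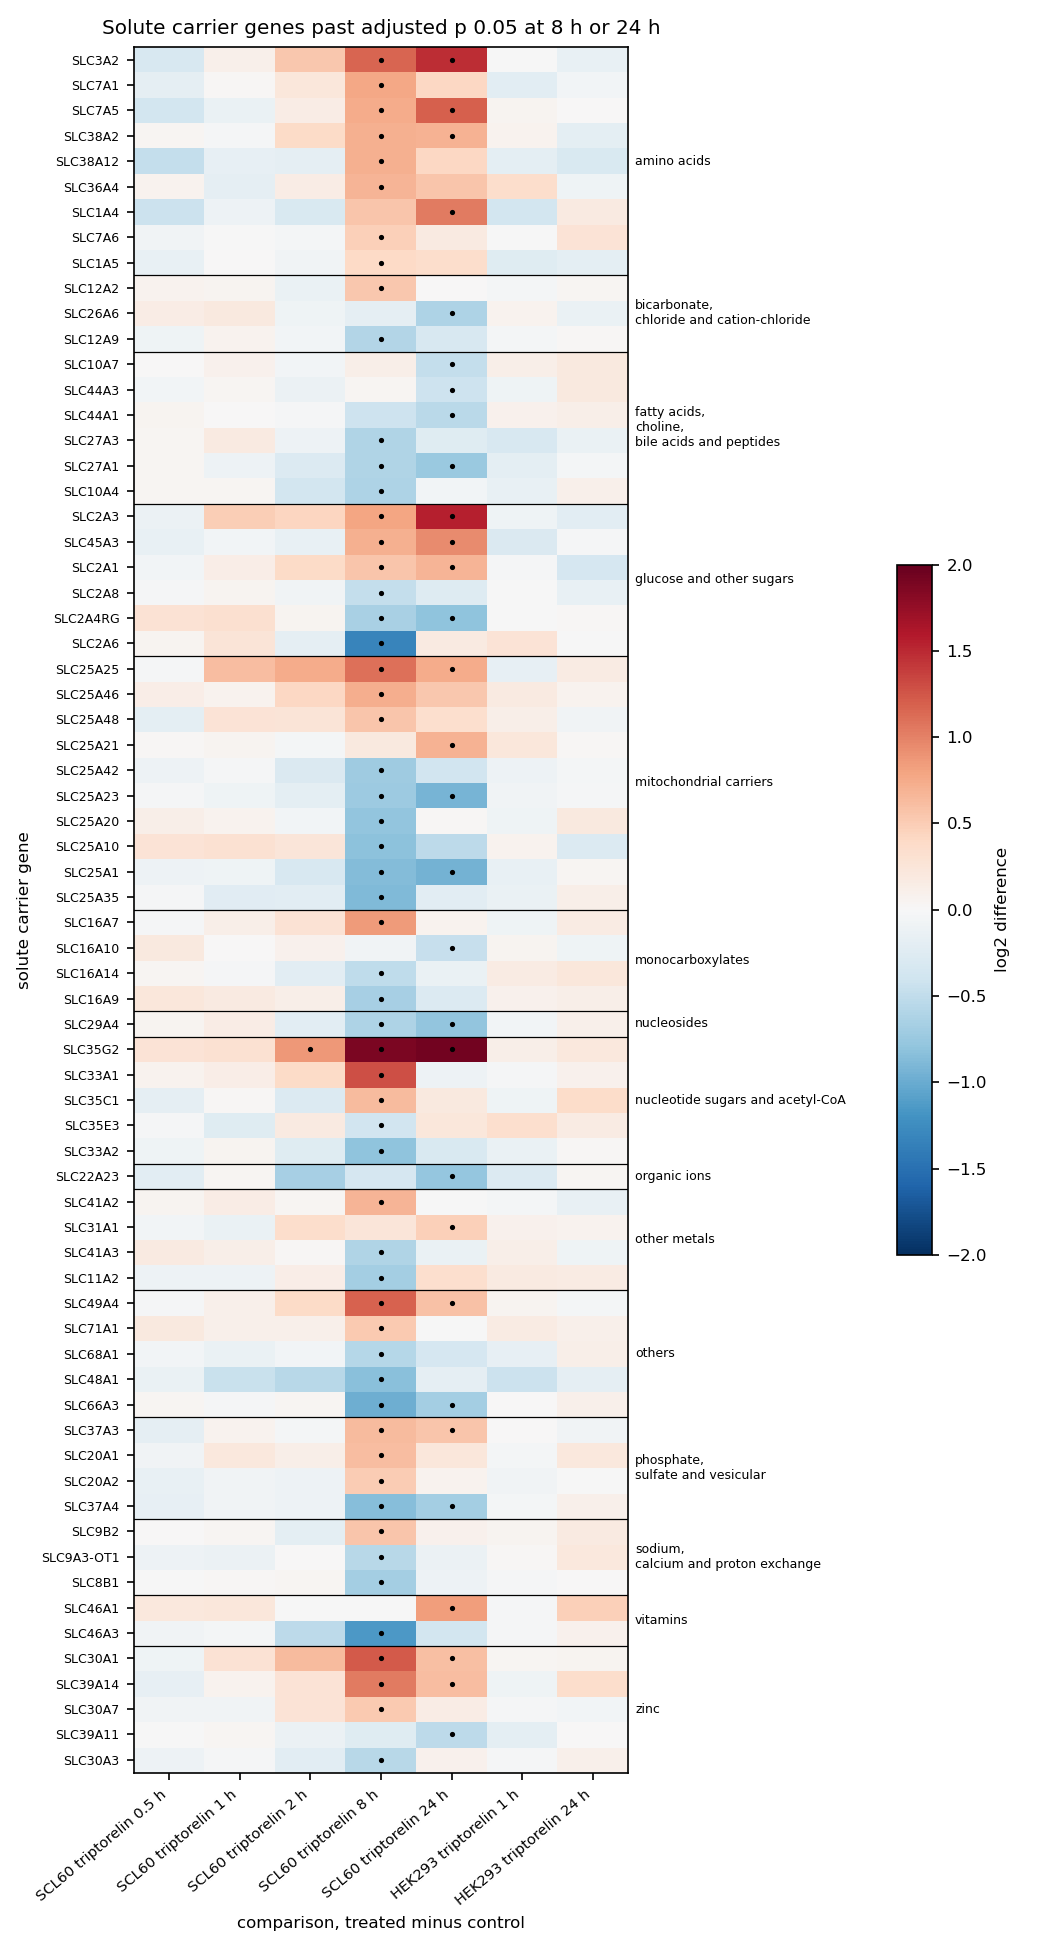
Log2 difference of the 68 SLC genes called at 8 h or 24 h (rows, by family group) in 5 SCL60 and 2 HEK293 comparisons (columns), where red is higher and blue lower than vehicle and a dot marks adjusted p under 0.05. SLC35G2 had a dot at 2 h, 8 h and 24 h, and neither HEK293 column had any.

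The amino acid transporters that rose include both chains of the CD98 complex. SLC3A2 encodes the heavy chain (4F2hc), which carries several light chains to the cell surface, and SLC7A5 encodes LAT1, the light chain that exchanges glutamine for large neutral amino acids such as leucine. SLC3A2 read 9.67, 10.42, 10.42 and 10.11 on the treated arrays at 8 h and 8.72, 9.02, 8.99 and 9.25 on the controls. Every treated array lay above every control, and the difference was 1.16 ± 0.30 (adjusted p = 0.00268, 2.23-fold). At 24 h it read 9.88, 10.13, 11.01 and 10.81 against 8.40, 8.99, 9.57 and 8.96, a difference of 1.47 ± 0.30 (adjusted p = 0.000383, 2.78-fold). The groups again did not overlap, and a second probe for SLC3A2 gave 1.11 at 8 h and 1.78 at 24 h.

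SLC7A5 read 10.94, 11.43, 11.59 and 11.47 after 8 h of triptorelin and 10.32, 10.80, 10.63 and 10.69 in the controls. These groups did not overlap, and the difference of 0.75 ± 0.28 passed narrowly (adjusted p = 0.0425). It did not pass without control replicate 1, 3 or 4 or triptorelin replicate 2, 3 or 4 (0.65 to 0.77). At 24 h the treated arrays read 10.68, 11.02, 11.77 and 11.86 and the controls 9.87, 10.47, 10.12 and 10.13, and the difference of 1.19 ± 0.28 (adjusted p = 0.00243, 2.28-fold) was called. The member SLC7A5P2 is a pseudogene copy of SLC7A5, and how far the probes of the pair can share transcripts was not tested. SLC7A11, the light chain of the cystine and glutamate exchanger that also pairs with SLC3A2, was not detected on any array of either group at 8 h or on any control at 24 h, and it was not called at either time (adjusted p = 0.098 and 0.221). With the replicate number as a block its 8 h difference passed (adjusted p = 0.0171), though undetected in both groups. Its 24 h difference did not (adjusted p = 0.0526).

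SLC7A1, SLC38A2 and SLC1A5 were further calls among the amino acid carriers at 8 h, while SLC7A2, another cationic amino acid carrier, was at -0.22 and not called. SLC7A1, the cationic amino acid transporter CAT-1, read 11.07, 11.73, 11.70 and 11.00 at 8 h against 10.37, 10.80, 10.79 and 10.47. The groups did not overlap, and the difference was 0.77 ± 0.21 (adjusted p = 0.00528), whereas at 24 h it was 0.41 and not called (adjusted p = 0.237). SLC38A2, the sodium-coupled neutral amino acid transporter SNAT2, rose by 0.71 ± 0.20 at 8 h (adjusted p = 0.00611) and by 0.70 ± 0.20 at 24 h (adjusted p = 0.0147). Its 24 h call did not hold without control replicate 4 (0.58) or triptorelin replicate 3 (0.52). SLC1A5, the glutamine carrier ASCT2, read 10.05, 10.05, 9.60 and 9.77 against 9.23, 9.60, 9.60 and 9.44 at 8 h. The groups met at 9.60, and the difference of 0.40 ± 0.15 (adjusted p = 0.0494) did not pass without control replicate 1, 3 or 4 or triptorelin replicate 1 or 2 (0.32 to 0.44), nor with chip, labelling batch or hybridisation batch as a block (0.36).

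SLC1A4, the related neutral amino acid carrier ASCT1, was called only at 24 h in the unpaired fit. There the treated arrays read 6.15, 6.12, 7.25 and 6.90 and the controls 5.41, 5.44, 6.29 and 5.12. The groups overlapped, and the difference was 1.04 ± 0.28 (adjusted p = 0.00954). Without control replicate 4 (0.89) or triptorelin replicate 3 (0.82) it did not pass. At 8 h the difference of SLC1A4 was 0.55 (adjusted p = 0.149), and the change between the times was not called. The other calls of the group at 8 h were SLC38A12 (0.70), SLC36A4 (0.68) and SLC7A6 (0.47), the last a light chain for the exchange of cationic and neutral amino acids. SLC6A9, the glycine transporter GlyT1, was 0.70 higher at 8 h and 1.21 higher at 24 h, neither of which was called (adjusted p = 0.274 and 0.0804). With the replicate number as a block its 24 h difference passed (adjusted p = 0.00927) and its 8 h difference did not (adjusted p = 0.11).

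Genes of the amino acid response outside the SLC families were read beside these carriers from a list of 20 genes, of which 19 were tested. At 8 h 5 of them rose and 2 fell, with a median of 0.21, where 11.1% of everything tested rose and 13.5% fell. At 24 h 11 rose and 0 fell, where 4.75% of everything tested rose and 5.71% fell. Their 24 h median was 0.75, against a median of -0.02 for all genes. ATF4 itself rose by 0.55 ± 0.18 at 8 h and by 0.75 ± 0.18 at 24 h. ASNS, the asparagine synthetase, rose by 1.21 ± 0.29 at 24 h. Of the 2 that fell at 8 h, DDIT4, a brake on mTOR complex 1, was at -2.21 ± 0.36 and VLDLR, a lipoprotein receptor, at -1.03 ± 0.24.

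Of the 13 members of the sugar group, SLC2A3, SLC2A1 and SLC45A3 rose at 8 h and at 24 h, while 3 fell at 8 h and 1 at 24 h. SLC2A3, the high-affinity neuronal-type carrier GLUT3, read 9.18, 8.89, 9.19 and 9.17 after 8 h against 8.01, 8.64, 8.32 and 8.32. The groups did not overlap, and the difference was 0.78 ± 0.18 (adjusted p = 0.00107). After 24 h it read 9.57, 9.58, 10.14 and 10.35 against 8.06, 8.31, 8.57 and 8.51, a difference of 1.55 ± 0.18 (adjusted p = 8.88e-09, 2.92-fold). The treated arrays all lay well above the controls.

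SLC2A1, the ubiquitous glucose carrier GLUT1, rose less. It read 9.49, 9.43, 8.97 and 9.14 at 8 h against 8.82, 8.92, 8.46 and 8.62, and the difference of 0.55 ± 0.17 (adjusted p = 0.0129) did not pass without control replicate 3 or triptorelin replicate 1 (0.47 in either case). On the 24 h arrays it read 9.18, 9.38, 9.55 and 9.36 against 8.73, 8.99, 8.44 and 8.58, a difference of 0.68 ± 0.17 (adjusted p = 0.00432). The groups did not overlap at either time. SLC45A3, or prostein, rose by 0.72 ± 0.21 at 8 h (adjusted p = 0.00905, not passing without control replicate 1, 0.56) and by 0.94 ± 0.21 at 24 h (adjusted p = 0.00141).

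SLC2A6, the lysosomal carrier GLUT6, moved the other way and for a short time. At 8 h the treated arrays read 5.93, 6.85, 5.65 and 6.78 and the controls 7.61, 7.82, 7.49 and 7.55. All treated arrays lay below all controls, and the difference was -1.31 ± 0.24 (adjusted p = 3.47e-05). At 24 h they read 7.74, 7.24, 7.18 and 7.42 against 7.28, 7.17, 7.33 and 7.08, and the difference of 0.18 was not called (adjusted p = 0.75). SLC2A8, the intracellular carrier GLUT8, fell by 0.48 at 8 h. SLC2A4RG, a DNA-binding regulator of the GLUT4 gene and not a carrier, fell by 0.65 at 8 h and by 0.80 at 24 h. Among 17 tested genes of glucose uptake and glycolysis outside the SLC families, 4 rose and 1 fell at 8 h and 1 rose and 2 fell at 24 h. The shares over everything tested were 11.1% higher and 13.5% lower at 8 h, and 4.75% and 5.71% at 24 h. The hexokinase gene HK2 rose by 0.88 ± 0.23 at 8 h, and PFKFB4, which controls fructose 2,6-bisphosphate, was at -1.36 ± 0.15.

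**Figure D3:**
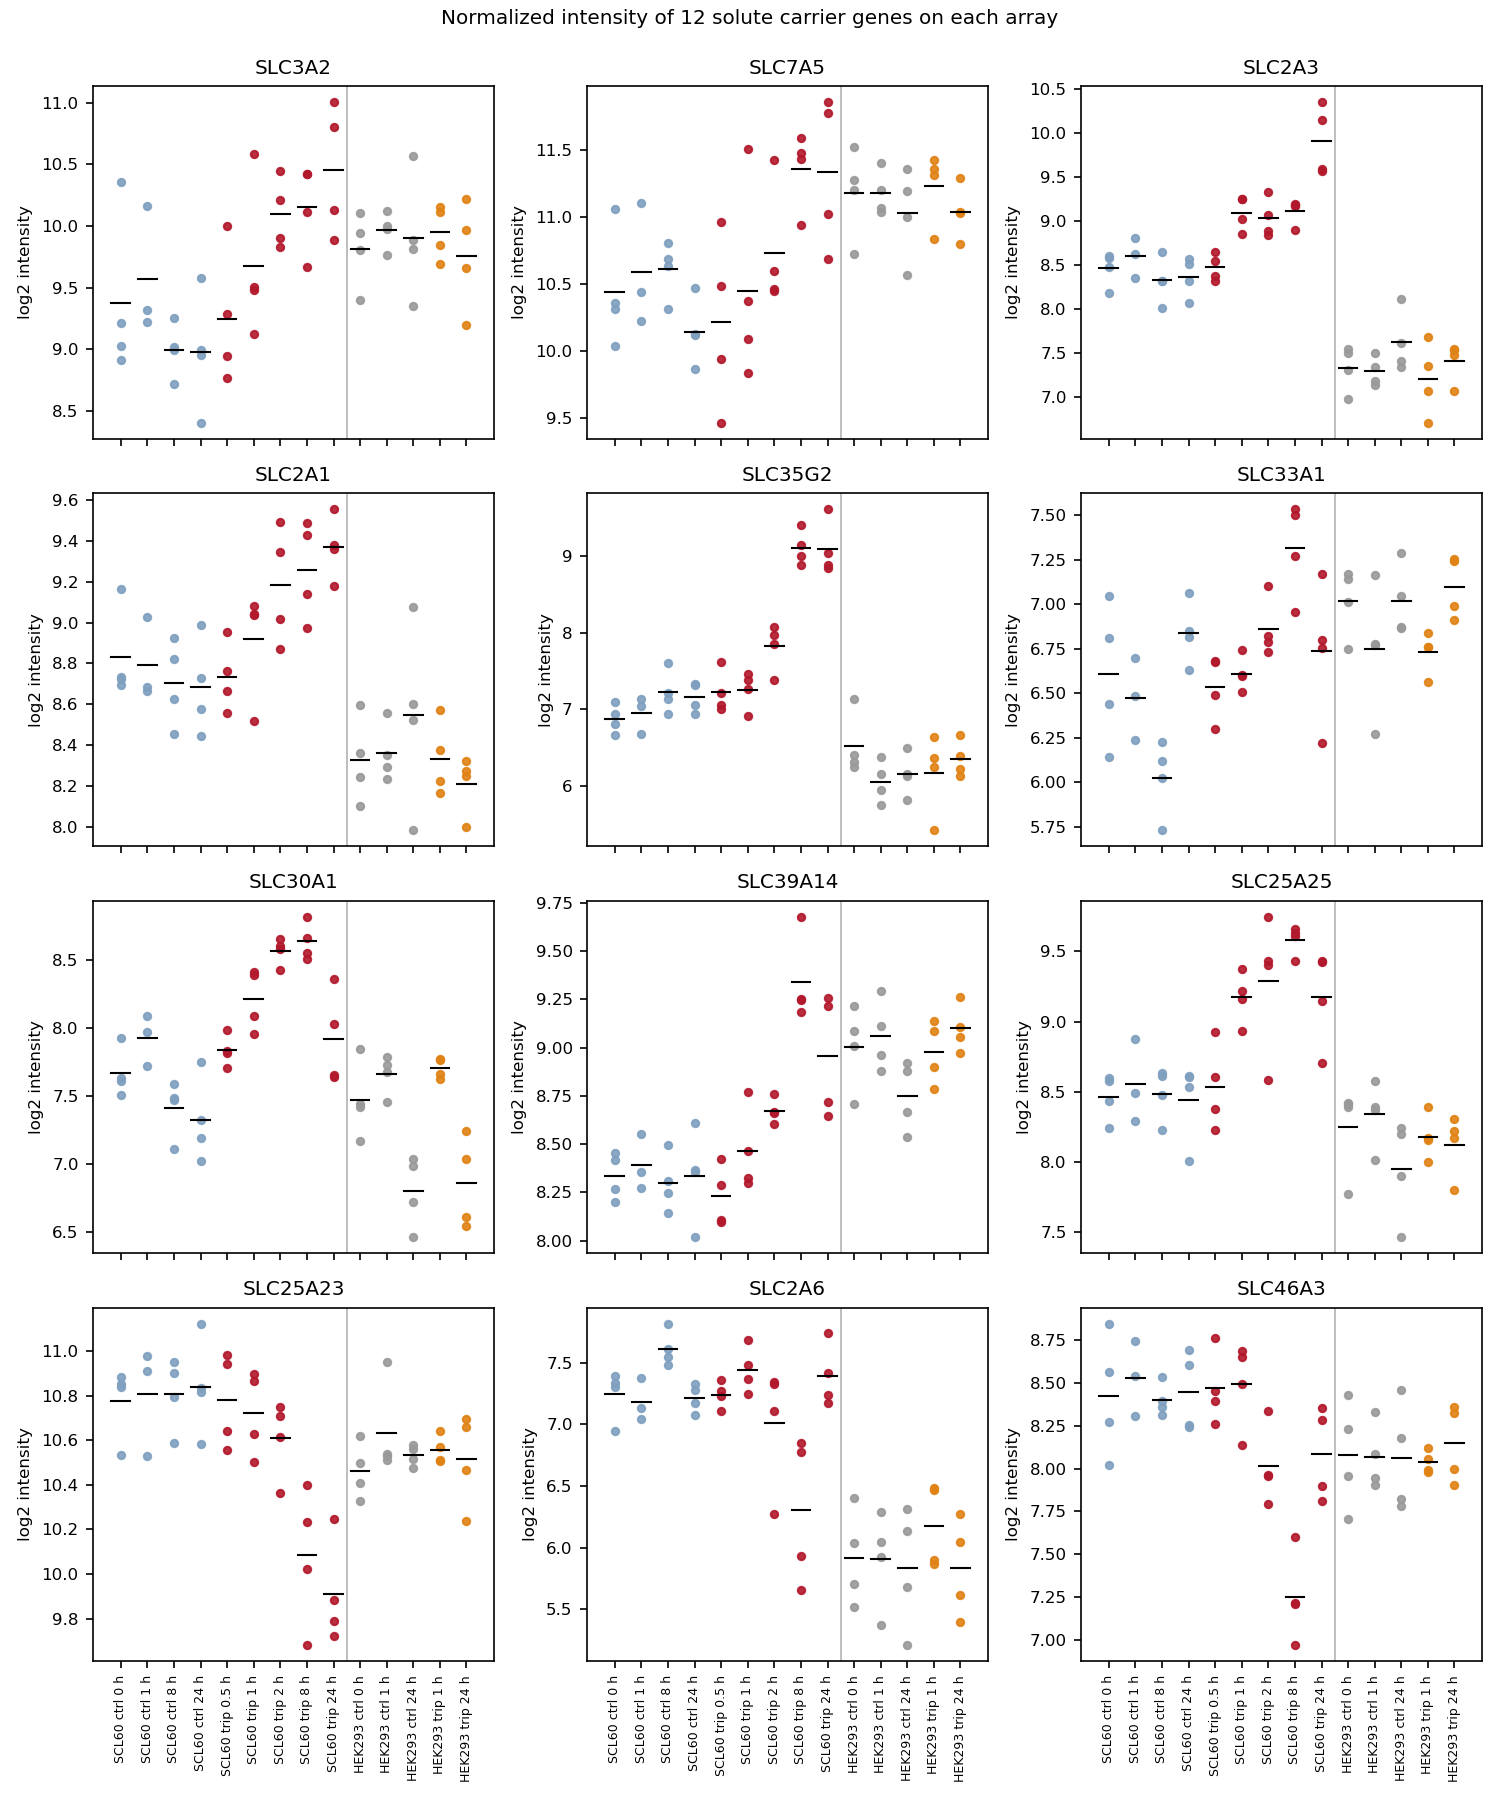
Log2 intensity of 12 SLC genes on each of the 55 arrays (points) with the group mean (line), for SCL60 vehicle (blue), SCL60 triptorelin (red), HEK293 vehicle (grey) and HEK293 triptorelin (orange) groups ordered by time. SLC35G2 rose from a mean of 7.22 in vehicle to 9.11 at 8 h, SLC2A6 fell at 8 h to a mean of 6.30 and was at 7.39 at 24 h, and SLC3A2 and SLC7A5 were higher in HEK293 than in SCL60 controls.

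The zinc carriers that rose included an exporter and an importer. SLC30A1 (ZnT1) exports zinc over the plasma membrane, and SLC39A14 (ZIP14) brings zinc, iron and manganese into the cytosol. SLC30A1 read 8.66, 8.82, 8.51 and 8.55 at 8 h against 7.47, 7.59, 7.11 and 7.48. Treated and control arrays lay far apart, and the difference was 1.22 ± 0.17 (adjusted p = 1.13e-07, 2.33-fold), with 1.72 from a second probe. At 24 h it read 7.64, 8.36, 8.03 and 7.65 against 7.19, 7.75, 7.02 and 7.33, and the groups overlapped. The difference of 0.60 ± 0.17 (adjusted p = 0.0119) did not pass without control replicate 3 (0.50) or triptorelin replicate 2 (0.45), nor with the mean of both probes (0.53), and the second probe alone gave 0.47 and was not called.

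The vehicle groups of SLC30A1 were not level over time. In SCL60 they averaged 7.67 ± 0.18 at 0 h, 7.92 ± 0.19 at 1 h, 7.41 ± 0.21 at 8 h and 7.32 ± 0.31 at 24 h (SD, n = 4, and 3 at 1 h), and in HEK293 7.47 ± 0.28 at 0 h, 7.66 ± 0.14 at 1 h and 6.80 ± 0.27 at 24 h (SD, n = 4). Neither change from 0 h to 24 h was called.

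SLC39A14 read 9.25, 9.25, 9.68 and 9.18 at 8 h against 8.25, 8.31, 8.15 and 8.50, without overlap, for a difference of 1.04 ± 0.14 (adjusted p = 1.65e-07). The 24 h readings were 8.72, 9.21, 9.26 and 8.65 against 8.02, 8.61, 8.37 and 8.36, a difference of 0.62 ± 0.14 (adjusted p = 0.00209). SLC30A7, which loads zinc into the Golgi, rose by 0.52 at 8 h, and SLC30A3, the synaptic vesicle carrier ZnT3, fell by 0.55 ± 0.20 (adjusted p = 0.0414). The SLC30A3 call was lost without control replicate 1, 3 or 4 or triptorelin replicate 1, 2 or 3 (-0.55 to -0.47), and with chip, hybridisation batch or labelling batch as a block (-0.51 to -0.49). Of 4 metallothionein and zinc-sensing genes that were tested, 0 rose, and MT1F, a zinc-binding metallothionein, fell by 0.95 ± 0.20 at 8 h and by 0.72 ± 0.20 at 24 h.

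Carriers of other metals moved both ways. SLC41A2, a magnesium carrier, rose by 0.68 ± 0.15 at 8 h (adjusted p = 0.00038) and SLC41A3, of the same family, fell by 0.60 ± 0.18 (adjusted p = 0.00845), with -0.58 from its second probe. SLC11A2, the iron importer DMT1, read 8.76, 8.81, 8.29 and 8.56 at 8 h against 9.40, 9.49, 9.08 and 9.14. The groups did not overlap, and the difference was -0.67 ± 0.16 (adjusted p = 0.00156), while at 24 h it was 0.33 and not called (adjusted p = 0.215). The SCL60 vehicle arrays of SLC11A2 at 0, 1 and 24 h ran from 8.53 through a median of 8.86 to 9.19. Its 8 h vehicle readings thus lay high beside them. SLC31A1, the copper importer CTR1, rose by 0.48 at 24 h (adjusted p = 0.0382).

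SLC35G2 had the largest SLC change at 2 h, 8 h and 24 h. It is placed by sequence in the nucleotide sugar family, its older symbol is TMEM22, and its substrate is not given in the sources used here. It read 9.40, 9.00, 8.89 and 9.14 at 8 h against 7.60, 7.21, 6.94 and 7.14, a difference of 1.88 ± 0.21 (adjusted p = 9.11e-10, 3.69-fold). At 24 h it read 9.61, 8.84, 9.04 and 8.88 against 7.05, 6.94, 7.33 and 7.32, a difference of 1.93 ± 0.21 (adjusted p = 8.73e-10, 3.82-fold). Treated and control arrays lay far apart at both times.

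SLC33A1, which carries acetyl-CoA into the endoplasmic reticulum, read 7.53, 7.27, 7.50 and 6.95 at 8 h against 6.12, 6.22, 5.73 and 6.03, a difference of 1.29 ± 0.18 (adjusted p = 1.77e-07). Triptorelin for 24 h gave 6.75, 6.80, 7.17 and 6.22 against 6.81, 7.07, 6.63 and 6.85, with a difference of -0.11 (adjusted p = 0.807). Both arms moved between these times: the vehicle mean of SLC33A1 was 6.03 ± 0.21 at 8 h and 6.84 ± 0.18 at 24 h, and the treated mean was 7.32 ± 0.27 and 6.73 ± 0.39 (SD, n = 4). SLC33A2, older symbol MFSD3, fell by 0.81 ± 0.15 at 8 h (adjusted p = 5.7e-05). SLC35C1, which brings GDP-fucose into the Golgi, rose by 0.64 at 8 h (adjusted p = 0.0468), and SLC35E3 fell by 0.38.

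Among the mitochondrial carriers, 2 calcium-regulated ATP-magnesium and phosphate exchangers of the same subfamily went in opposite directions. SLC25A25 (SCaMC-2) read 9.43, 9.63, 9.66 and 9.61 at 8 h against 8.23, 8.61, 8.63 and 8.48, without overlap, for a difference of 1.10 ± 0.20 (adjusted p = 2.46e-05), and a second probe gave 1.23. At 24 h the difference was 0.74 ± 0.20 (adjusted p = 0.00845), and it did not pass without control replicate 1 (0.59). SLC25A23 (SCaMC-3) read 9.68, 10.02, 10.40 and 10.24 at 8 h against 10.79, 10.59, 10.95 and 10.90, a difference of -0.72 ± 0.14 (adjusted p = 0.000111). At 24 h it read 9.72, 9.88, 9.79 and 10.24 against 10.84, 10.58, 10.81 and 11.12, a difference of -0.93 ± 0.14 (adjusted p = 3.23e-06). All SLC25A23 arrays of treated cells lay below all controls at both times.

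The citrate carrier SLC25A1, which supplies cytosolic acetyl-CoA for lipid synthesis, read 9.20, 9.50, 9.33 and 9.94 at 8 h against 10.30, 9.74, 10.65 and 10.76. There 1 treated array lay above the lowest control, and the difference was -0.87 ± 0.23 (adjusted p = 0.00442). With 24 h of treatment it read 9.36, 9.39, 9.34 and 9.80 against 10.19, 10.06, 10.51 and 10.91, without overlap, a difference of -0.94 ± 0.23 (adjusted p = 0.00432). SLC25A10, the dicarboxylate carrier, fell by 0.82 ± 0.23 at 8 h (adjusted p = 0.00728) but not without triptorelin replicate 3 (-0.59). SLC25A20, which exchanges acylcarnitine for carnitine ahead of fatty acid oxidation, fell by 0.79 ± 0.17 at 8 h (adjusted p = 0.000572), with -0.73 from a second probe, and was at 0.02 at 24 h. SLC25A42, the mitochondrial coenzyme A carrier, fell by 0.70 ± 0.14 (adjusted p = 0.000179).

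SLC25A35 was not detected on any treated array at 8 h and read 6.21, 5.73, 6.28 and 6.18 in the controls, which places it at least 1.23-fold lower (adjusted p = 0.000479). This bound sets the control mean against the lowest signal of detected probes on each treated array. SLC25A46, an outer membrane protein that shapes mitochondria, rose by 0.72 ± 0.27 (adjusted p = 0.0464) and SLC25A48 by 0.55 ± 0.21 (adjusted p = 0.0485) at 8 h. SLC25A21, the oxodicarboxylate carrier, rose by 0.69 ± 0.17 at 24 h (adjusted p = 0.00469). The abundant carriers SLC25A3 for phosphate and SLC25A5 for ADP and ATP were at -0.28 and 0.05 at 8 h and were not called. With the replicate number as a block SLC25A3 passed narrowly at 8 h (adjusted p = 0.0473).

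Phosphate carriers of the plasma membrane rose at 8 h. SLC20A1 (PiT-1) read 12.10, 12.09, 12.72 and 12.29 against 11.32, 11.67, 11.96 and 11.77, a difference of 0.62 ± 0.19 (adjusted p = 0.0147) that did not pass without control replicate 1 (0.50) or triptorelin replicate 3 (0.48). SLC20A2 (PiT-2) read 8.10, 8.15, 7.94 and 8.11 against 7.59, 7.68, 7.41 and 7.61, a difference of 0.50 ± 0.13 (adjusted p = 0.00329). At 24 h they were at 0.22 and 0.08, and neither was called.

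Within family 37 the directions differed. SLC37A4, the glucose 6-phosphate transporter, read 9.78, 9.72, 9.72 and 9.54 at 8 h against 10.59, 10.61, 10.40 and 10.57, a difference of -0.85 ± 0.12 (adjusted p = 1.15e-07). At 24 h it read 9.81, 9.95, 10.09 and 9.93 against 10.49, 10.58, 10.80 and 10.62, a difference of -0.68 ± 0.12 (adjusted p = 2.72e-05). The groups were well separated at both times. SLC37A3 rose by 0.63 ± 0.13 at 8 h (adjusted p = 0.000152) and by 0.56 ± 0.13 at 24 h (adjusted p = 0.00171). Its 3 probes differed: the others gave 0.66 and 0.40 at 8 h and 0.37 and 0.12 at 24 h, and with the mean of probes the 24 h difference of 0.35 was not called.

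Among ion exchangers and cotransporters at 8 h, 1 of 10 carriers of bicarbonate, chloride and cation-chloride rose and 1 fell. Of 9 members of the sodium, calcium and proton exchange families 1 rose and 2 fell, with the non-coding RNA SLC9A3-OT1 among the falls. Over everything tested 11.1% rose and 13.5% fell. SLC12A2, the sodium-potassium-chloride cotransporter NKCC1, rose by 0.54 ± 0.17 at 8 h (adjusted p = 0.0169). It did not pass without control replicate 1 (0.39) or triptorelin replicate 2 or 3 (0.46 and 0.49). Its 8 h vehicle mean of 8.12 was the lowest of all groups. The SCL60 vehicle arrays of SLC12A2 at 0, 1 and 24 h ran from 8.18 through a median of 8.45 to 8.82. SLC12A9 fell by 0.59 at 8 h (adjusted p = 0.000684). SLC9B2, a sodium and proton exchanger, rose by 0.56 ± 0.15 at 8 h (adjusted p = 0.00404). SLC8B1, the mitochondrial sodium and calcium exchanger NCLX, fell by 0.68 ± 0.15 (adjusted p = 0.000417). Of 10 ATP-driven ion pump genes that were tested beside them, 5 rose and 1 fell at 8 h, against the same shares of 11.1% and 13.5%. ATP2A2, the calcium pump of the endoplasmic reticulum, rose by 1.42 ± 0.24.

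A few lysosomal and vitamin carriers were among the 10 largest called rises or falls. Of the 8 members of the vitamin group 0 rose and 1 fell at 8 h, where 11.1% and 13.5% of everything tested did. At 24 h 1 rose and 0 fell, where 4.75% and 5.71% of everything tested did. SLC49A4, older symbol DIRC2, a lysosomal membrane protein, read 9.74, 9.58, 9.78 and 9.58 at 8 h against 8.50, 8.66, 8.24 and 8.54, a difference of 1.18 ± 0.11 (adjusted p = 1.01e-11), which was the smallest adjusted p of any member at that time. After 24 h the values were 8.97, 8.92, 9.21 and 9.14 against 8.42, 8.47, 8.78 and 8.27, a difference of 0.58 ± 0.11 (adjusted p = 0.000265). SLC46A3, a lysosomal carrier, read 6.97, 7.21, 7.60 and 7.22 at 8 h against 8.39, 8.36, 8.54 and 8.31, a difference of -1.15 ± 0.18 (adjusted p = 1.56e-06). At 24 h it was at -0.36 (adjusted p = 0.209, or 0.0267 with the replicate number as a block). SLC46A1, the proton-coupled folate transporter, was at -0.01 at 8 h and read 7.18, 7.31, 7.68 and 7.81 at 24 h against 6.49, 6.18, 7.10 and 6.85. That difference of 0.84 ± 0.26 (adjusted p = 0.0265) did not pass without control replicate 1 or 2 or triptorelin replicate 3 or 4 (0.68 to 0.78).

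SLC66A3, older symbol PQLC3, read 6.56, 6.18, 6.35 and 6.17 at 8 h against 7.67, 7.19, 6.96 and 7.35, a difference of -0.97 ± 0.18 (adjusted p = 5.81e-05), and was at -0.68 ± 0.18 at 24 h (adjusted p = 0.00996). SLC48A1, the heme transporter HRG1, was not detected on any treated array at 8 h and was at least 1.08-fold lower (adjusted p = 0.0148). It did not pass without control replicate 4 or triptorelin replicate 1 (adjusted p = 0.0857 and 0.0535). The monocarboxylate carrier SLC16A7 (MCT2) read 6.24, 5.94, 6.11 and 6.24 at 8 h against 4.94, 5.79, 5.28 and 5.10. The difference was 0.86 ± 0.18 (adjusted p = 0.000302). SLC16A7 was detected on only 9 arrays of the series. Its control readings of 4.94, 5.28 and 5.10 lay under 5.33, the lowest signal of a detected probe on any array. The size of its rise is therefore uncertain. SLC16A9 of the same family fell by 0.66 ± 0.17 (adjusted p = 0.00331). Neither SLC16A7 nor SLC16A9 was called at 24 h.

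Carriers of fatty acids, choline, bile acids and peptides had falls and no rises at either late time, and of the 3 nucleoside carriers of family 29 only SLC29A4 was called, lower at both. SLC29A4, the plasma membrane monoamine transporter, read 6.29, 6.54, 6.03 and 6.20 at 24 h against 7.20, 7.28, 6.78 and 6.92, a difference of -0.78 ± 0.16 (adjusted p = 0.000471), after -0.62 ± 0.16 at 8 h (adjusted p = 0.00297). SLC27A1, the fatty acid transport protein FATP1, was not detected on any treated array at 8 h or 24 h and at 24 h was at least 1.1-fold lower (adjusted p = 0.00986). It did not pass at 24 h without control replicate 4 or triptorelin replicate 1 (adjusted p = 0.0595 and 0.0841), nor at 8 h without control replicate 3 or triptorelin replicate 2 or 4 (adjusted p from 0.0658 to 0.155). SLC27A3 of the same family fell by 0.60 at 8 h (adjusted p = 0.0235), but not without control replicate 1 or triptorelin replicate 3 or 4 (-0.55 to -0.52). SLC10A7 (-0.47) and SLC44A3 (-0.42) were called lower at 24 h.

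SLC44A1, the choline carrier CTL1, was at -0.54 ± 0.18 at 24 h (adjusted p = 0.0355), and the call was lost without control replicate 1 or 2 or triptorelin replicate 3 or 4 (-0.53 to -0.42) and under cyclic loess (-0.49). SLC26A6, an anion exchanger, was at -0.61 ± 0.18 (adjusted p = 0.0193) and SLC22A23, an orphan member of the organic ion family, at -0.77 ± 0.25 (adjusted p = 0.0335) at 24 h. SLC26A6 did not pass without control replicate 1 or 2 or triptorelin replicate 3 (-0.56 to -0.48) or with the mean of its probes (-0.41), and SLC22A23 did not pass without control replicate 3 or 4 or triptorelin replicate 1, 2 or 3 (-0.79 to -0.59). SLC10A4 (-0.62) and SLC16A14 (-0.51) were called lower at 8 h from the brighter of 2 probes, whereas the second probes read 0.06 and 0.02, and neither call held with the mean of probes (-0.28 and -0.24). SLC16A14 was also lost without control replicate 2 or 3 or triptorelin replicate 1 or 4 (-0.47 to -0.43).

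**Figure D4:**
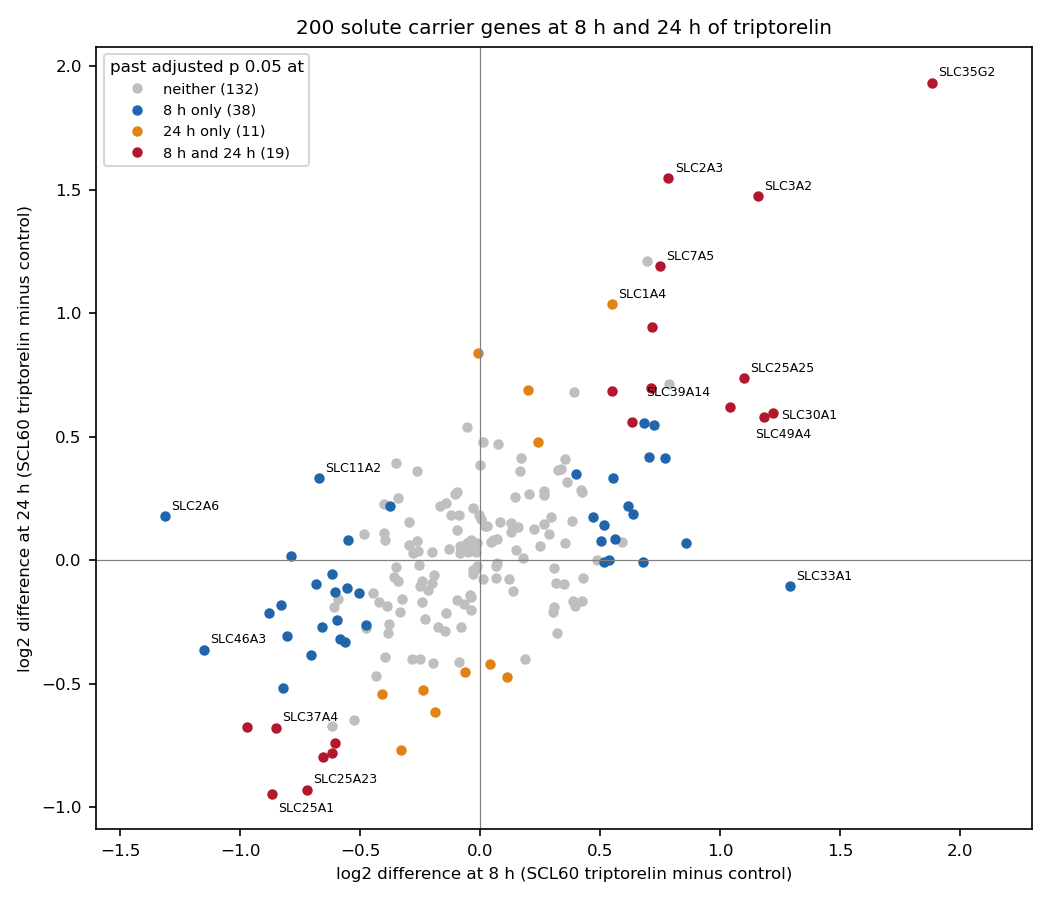
Log2 difference of each of the 200 SLC genes at 8 h (x axis) and 24 h (y axis) of triptorelin in SCL60 cells, coloured by the times at which it was called. The 19 genes called at both times lie to the lower left and upper right of the origin, and SLC33A1 and SLC2A6 lie near 0 on the 24 h axis.

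The change from 8 h to 24 h was itself tested. It passed for 4 members (2%, against 3.06% of everything tested), and for 15 (background 7.73%) with the replicate number as a block. SLC2A6 (1.49 ± 0.34, adjusted p = 0.00547) and SLC11A2 (1.00 ± 0.23, adjusted p = 0.00604) came back up, and SLC33A1 (-1.40 ± 0.25, adjusted p = 0.000425) and SLC49A4 (-0.60 ± 0.16, adjusted p = 0.0225) came back down. The SLC49A4 call was lost without control replicate 3 at 24 h, control replicate 3 at 8 h, triptorelin replicate 1 at 24 h or triptorelin replicate 3 at 8 h (-0.57 to -0.51). All 4 kept their sign in both hybridisation batches, which are parts of the same arrays that gave the calls.

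The first hours gave few SLC calls. These comparisons share the 3 SCL60 vehicle arrays at 1 h, because no vehicle group was taken at 0.5 h or 2 h. At 0.5 h 0 of 200 members were called (background 0.109%, 1 at an unadjusted p under 0.05), and at 1 h 0 (background 0.563%, 2 at an unadjusted p under 0.05). With the replicate number as a block 1 member was called at 1 h (background 0.774%): SLC25A25, at 0.69 (adjusted p = 0.0222). At 2 h SLC35G2 alone was called (0.5% of members, background 1.48%). It read 8.07, 7.85, 7.97 and 7.39 against 7.13, 7.04 and 6.68, all above the controls, for a difference of 0.87 ± 0.23 (adjusted p = 0.0298). The call did not hold without control replicate 3 or 4 or triptorelin replicate 1, 2 or 3 (0.74 to 0.92). With the block 5 members were called at 2 h (background 3.26%): SLC35G2, SLC25A25 (0.80) and SLC30A1 (0.66) higher, and SLC22A23 (-0.59) and SLC46A3 (-0.46) lower.

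HEK293 cells without the receptor gave 0 calls among the members at 1 h (background 0%) and at 24 h (background 0%) in limma's test, with 5 members at an unadjusted p under 0.05 at each time and a smallest adjusted p of 1. Of the 30 members called in SCL60 at 24 h, 13 had a HEK293 difference of the same sign at 24 h, and those 30 HEK293 differences ran from -0.34 to 0.48. The vehicle groups at 24 h against 0 h gave 0 calls in SCL60 (background 0%) and 0 in HEK293 (background 0%), with 2 and 10 members at an unadjusted p under 0.05.

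The 24 h effect of triptorelin differed between SCL60 and HEK293 for 12 members (6%, against 3.82% of everything tested), 6 in each direction. SLC2A3 read 7.55, 7.48, 7.53 and 7.07 in treated HEK293 cells against 7.34, 7.62, 7.41 and 8.12, a difference of -0.22, and its effect in SCL60 was 1.76 ± 0.26 larger (adjusted p = 4.04e-06). SLC35G2 read 6.22, 6.39, 6.13 and 6.67 against 6.50, 6.13, 6.16 and 5.82 in HEK293, and its difference between the lines was 1.73 ± 0.30 (adjusted p = 8.44e-05). SLC3A2 (1.62 ± 0.42, adjusted p = 0.0147) and SLC2A1 (1.02 ± 0.24, adjusted p = 0.00634) followed. The SLC3A2 difference did not pass without HEK293 control replicate 4 (1.40) or HEK293 triptorelin replicate 1 (1.43). SLC49A4 (0.61, adjusted p = 0.0169) and SLC37A3 (0.63, adjusted p = 0.0298) were the other rises.

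On the lower side the 24 h effect of SLC25A23 differed by -0.91 ± 0.20 (adjusted p = 0.00294), followed by SLC29A4 (-0.89, adjusted p = 0.0127), SLC2A4RG (-0.82, adjusted p = 0.0326), SLC37A4 (-0.78 ± 0.16, adjusted p = 0.00171), SLC10A7 (-0.67, adjusted p = 0.0236) and SLC44A3 (-0.62, adjusted p = 0.0359). Several of the smaller calls were lost when 1 array was left out. SLC29A4 did not pass without HEK293 control replicate 4 (-0.70). SLC10A7 did not pass without HEK293 control replicate 2 or 4, HEK293 triptorelin replicate 4, SCL60 control replicate 1 or SCL60 triptorelin replicate 1 (-0.64 to -0.59). SLC37A3 did not pass without HEK293 control replicate 3, HEK293 triptorelin replicate 1 or 2, SCL60 control replicate 1 or 4 or SCL60 triptorelin replicate 2 or 3 (0.53 to 0.62), nor with the mean of its probes (0.23). SLC2A4RG did not pass without HEK293 control replicate 3 or 4, HEK293 triptorelin replicate 1, 2 or 3, SCL60 control replicate 1, 2 or 4 or SCL60 triptorelin replicate 3 or 4 (-0.83 to -0.70).

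**Figure D5:**
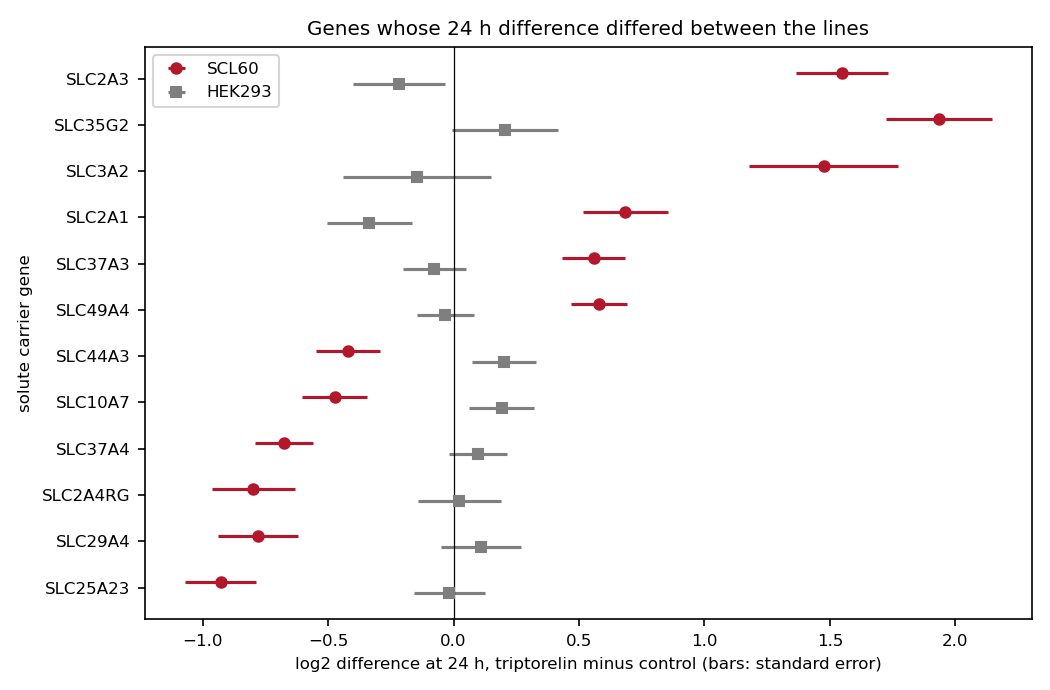
Log2 difference at 24 h of triptorelin against vehicle in SCL60 (red circles) and HEK293 (grey squares), with standard errors, for the 12 SLC genes whose effect differed between the lines. SLC2A3 and SLC35G2 were at 1.55 and 1.93 in SCL60 and at -0.22 and 0.20 in HEK293.

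SCL60 and HEK293 cells differed in 80 members without triptorelin (40%, against 42.4% of everything tested), comparing the vehicle groups at 0, 1 and 24 h, with 41 higher in SCL60 (20.5%, background 22.5%) and 39 lower (19.5%, background 19.9%). These shares lie near or under their backgrounds. By group, 2 of 24 nucleotide sugar and acetyl-CoA carriers were higher in SCL60 and 10 lower, 2 of 17 zinc carriers were higher and 6 lower, 2 of 32 amino acid carriers were higher and 6 lower, and 9 of 33 mitochondrial carriers were higher and 4 lower. All 80 kept their sign in both hybridisation batches, which again are parts of the same arrays that gave the calls.

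SLC25A43, a mitochondrial carrier without an assigned substrate, ran from 10.02 through a median of 10.12 to 10.43 on the 11 SCL60 vehicle arrays and from 7.83 through 8.15 to 8.57 on the 12 HEK293 arrays. The lines did not overlap, and the difference was 1.96 ± 0.10 (adjusted p = 2.39e-22), with 1.28 from a second probe. SLC6A9 ran from 5.55 through 6.09 to 7.65 in SCL60 and was not detected on any HEK293 vehicle array, so no fold is given. SLC30A3 (1.34), SLC2A6 (1.33) and SLC16A9 (1.31) were also higher in SCL60, without overlap. In the other direction, SLC39A4, the zinc importer ZIP4, ran from 5.43 through 5.79 to 6.35 in SCL60 and from 6.90 through 7.46 to 8.16 in HEK293 (-1.63 ± 0.13). SLC27A5, a bile acid and fatty acid ligase, was at -1.64 ± 0.17 and SLC52A2, a riboflavin transporter, at -1.04 ± 0.12, again without overlap.

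Some members that triptorelin moved already differed between the lines. SLC3A2 was lower in SCL60 vehicle cells (-0.59 ± 0.18, adjusted p = 0.00565), and so was SLC7A5 (-0.74 ± 0.17, adjusted p = 0.000261), with 8.40 to 10.36 and 9.87 to 11.10 on the SCL60 vehicle arrays and 9.35 to 10.57 and 10.57 to 11.52 on the HEK293 arrays. SLC39A14 was also lower in SCL60 (-0.58 ± 0.09). SLC2A3 (1.06 ± 0.11) and SLC35G2 (0.75 ± 0.13) were higher in SCL60 before any triptorelin.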

How the data were processed

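Total RNA of 55 samples was hybridised to Illumina HumanHT-12 v3 arrays, 1 array a sample. The deposited table holds linear probe intensities that the authors left non-normalized, per the file headers, with a detection p-value for each probe and array, also deposited by the authors. How the scanner software summarised beads is not given in the sources used here. A second deposited table, of normalized values on a linear intensity scale whose method is not stated, served as an alternative.

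Here intensities were background-corrected with limma 3.58.1 in R 4.3.3 (normexp with offset 16, with the background estimated through the detection p-values), quantile-normalized and put on the log2 scale. Of 48803 probes, 16016 with a detection p-value under 0.01 on at least 3 arrays were kept. The probe with the highest mean stood for a gene, which left 10467 named genes and 2326 unnamed probes (12793 in all). Names came from the platform annotation, which gives 28098 probes 1 symbol, 13 several and 20692 none, and were updated through RefSeq. A single linear model of 14 group means was fitted to all 55 arrays (lmFit, eBayes with an intensity trend), and p-values were adjusted by Benjamini-Hochberg. The code was tested on simulated data. The number of arrays limits the precision, and array median intensities ran from 44 to 75. A probe undetected on every array of a group has only a bound there, written as at least N-fold.

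The genes named are the 10 largest called rises and falls at 8 h and at 24 h, the 5 largest each way in other comparisons, up to 3 called members of each family group, the brightest members and a list of well-known carriers; others named were chosen after their values were seen. The members, family groups and companion lists were chosen with earlier results of these data known.

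Replicate numbers were checked as pairs by correlating the deviations of same-numbered arrays. In SCL60 they correlated at 0.21 to 0.438 at 8 h and 0.42 to 0.621 at 24 h, and at 0.162 or more in its earlier comparisons. Same-numbered arrays mostly also shared a labelling batch, so a pairing and a shared labelling batch cannot be told apart there. The main fit did not use the replicate numbers. Calls and adjusted p-values are unpaired unless the replicate block is named. With that block 73 of the 200 members were called at 8 h in place of 57, beside 35.2% of everything tested. At 24 h 45 were called in place of 30, beside 18% of everything tested. In HEK293 at 24 h the lowest correlation was 0.0588, and the numbers were not taken as pairs. The block was fitted over both lines together, so block counts that compare the lines also use the HEK293 numbers. Alternatives covered background correction, normalization, the filter, the choice of probe, batch and replicate blocks, the groups in the fit, other controls and leaving out each array.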

Additional observations from a re-analysis of the deposited data

Results flagged for a closer look

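On 15 occasions among 317 gene and group pairs (64 genes, groups of 4), 1 array lay far from the other 3, and chance gives about 1 in 20. In SCL60 controls at 8 h, SLC12A2 read 7.66 in replicate 1 (others 8.24 to 8.33), SLC26A6 read 7.59 in replicate 3 (8.35 to 8.37), SLC30A3 read 7.07 in replicate 2 (7.49 to 7.57) and SLC44A1 read 11.01 in replicate 2 (10.73 to 10.77). In SCL60 controls at 24 h, SLC25A25 read 8.01 in replicate 1 (8.53 to 8.61) and SLC33A2 read 10.0 in replicate 2 (10.21 to 10.23). After 8 h of triptorelin SLC27A5 read 4.87 in replicate 3 (6.29 to 6.4), SLC39A14 read 9.68 in replicate 3 (9.18 to 9.25) and SLC2A3 read 8.89 in replicate 2 (9.17 to 9.19). After 24 h SLC12A2 read 7.99 in replicate 1 (8.56 to 8.62), SLC20A1 read 11.31 in replicate 1 (12.2 to 12.27), SLC30A3 read 7.02 in replicate 2 (7.55 to 7.6) and SLC25A1 read 9.8 in replicate 4 (9.34 to 9.39). In HEK293, SLC2A3 read 7.07 in triptorelin replicate 4 at 24 h (7.48 to 7.55) and SLC6A9 read 5.03 in control replicate 3 at 1 h (4.69 to 4.73).

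The 24 h effect of triptorelin differed between SCL60 and HEK293, by limma's test of the difference, for SLC2A3 (1.76), SLC35G2 (1.73), SLC3A2 (1.62), SLC2A1 (1.02), SLC37A3 (0.63), SLC49A4 (0.61), SLC44A3 (-0.62), SLC10A7 (-0.67), SLC37A4 (-0.78), SLC2A4RG (-0.82), SLC29A4 (-0.89) and SLC25A23 (-0.91). Within SCL60 the effect differed between 24 h and 8 h for SLC2A6 (1.49), SLC11A2 (1.0), SLC49A4 (-0.6) and SLC33A1 (-1.4).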

How the results depend on the processing

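No called difference of a named member changed sign under any setting tried, while some differences near 0 that were not called did. Leaving out 1 array at a time gave 43 to 57 SLC calls at 8 h, 23 to 31 at 24 h, 0 to 2 at 2 h, 74 to 86 between the lines, 3 to 6 for the change from 8 h to 24 h and 8 to 14 for the 24 h effect in SCL60 against HEK293. The 2 h count of 1 became 2 with the authors' normalized values, without background correction, or with the stricter filter, 3 with cyclic loess, chip block or hybridisation batch block, 4 with labelling batch block, 5 with 0 h and 1 h vehicle groups averaged as the control, and 0 with no filter or with only the groups of the comparison. At 1 h the same averaged control gave 1 call. The 0 h controls alone gave 42 calls between the lines in place of 80. Fitting only the groups of the comparison gave 11 calls at 24 h in place of 30, and 5 in place of 12 for the 24 h effect between lines, with fewer samples to estimate the spread. That effect had 19 calls with the labelling batch block and 7 with no filter. The change from 8 h to 24 h had 7 calls with chip block and 11 with labelling batch block, in place of 4. With the replicate block the counts among the 200 members were 1 at 1 h (background 0.774%), 5 at 2 h (3.26%), 73 at 8 h (35.2%) and 45 at 24 h (18%). They were 100 between lines (background 50.7%), 15 for 24 h against 8 h (7.73%) and 22 for SCL60 against HEK293 at 24 h (8.22%). Every call made without the block was among them. For the other settings no background is given here, so their counts cannot tell a shift of the SLC genes from one of all genes. Other causes were not tested. Dim probes near background limit the smaller changes.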
